A study of Mus musculus with 54 samples.

Results

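The genes described here are 33 rows of hypoxia response and glycolysis genes in an RNA-seq table of 23481 genes. They are a fixed list of names, drawn up with earlier results of these data known, and all 33 were found. The table covers 54 libraries of 4T1, a mouse mammary carcinoma cell line that spreads from the mammary gland to the lung. Of these, 46 belonged to 23 clones started from single sorted cells, and the 2 libraries of a clone are lettered A and B. Clones E and T were recorded as intravasating, that is, able to enter blood vessels when the clones were followed as a pool, and the other 21 as non-intravasating. The other 8 libraries were made, in pairs, from 2 lung metastases (Lung_1 and Lung_2) and 2 orthotopic tumors (Tumor_1 and Tumor_2), grown in the mammary gland. No group carried a drug treatment or an engineered allele in the labels, and no mouse strain, age or time of growth is stated. The labels give the same culture medium for every sample, specimens included. They do not say whether specimen cells were sorted or grown in culture before RNA was taken, nor which clones the specimens held. Each clone is 1 line from 1 cell, and nothing says whether libraries A and B stand for separate cultures. A p-value over libraries therefore measures only the spread between libraries, which may be technical.

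Cells sense oxygen mainly through the prolyl hydroxylases encoded by Egln1 and Egln3. With oxygen present these enzymes mark the protein HIF-1 alpha, the product of Hif1a, for destruction. When oxygen falls the protein persists, pairs with ARNT and binds short DNA elements near genes for glucose uptake, glycolysis, pH control and the removal of mitochondria. Growth factor signalling and other transcription factors act on many of the same genes. HIF-1 alpha is controlled largely as a protein, which RNA-seq does not measure, and most glycolytic genes are also expressed at high levels in well-oxygenated tumor cells.

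The core of the hypoxia response element is ACGTG or GCGTG, and it was searched on both strands of the RefSeq promoters (build GRCm38.p6, 250 bases before to 50 bases after each transcription start). Promoters were found for 31 of the 33 genes, all but Bnip3l and Ndrg1. A core was present in at least 1 promoter of 29 of the 31 genes (93.5%), against 66.5% of the 9964 matched genes tested among the clones and 46.7% of all 27025 genes with a promoter. ACGTG itself was present in 22 of the 31 (71.0%), against 28.9% and 21.8%. The 2 genes without a core in this window were Gpi1 and Tpi1. Genes with several starts have more than 1 window and so more chances of a match, and a match of 5 letters describes the sequence only. Shown are the 250 bases before the start, 5′ to 3′ on the strand of the gene, for the genes on which the results below turn most: Bnip3 and Pdk1, which varied together among clones and were higher in lung metastases; Ldha, the second in level per kilobase; Car9, the most variable gene; Pfkfb3, which varied apart from the rest; and Adm, which moved the other way in the tissue comparison. Capitals mark every core on either strand.
Bnip3: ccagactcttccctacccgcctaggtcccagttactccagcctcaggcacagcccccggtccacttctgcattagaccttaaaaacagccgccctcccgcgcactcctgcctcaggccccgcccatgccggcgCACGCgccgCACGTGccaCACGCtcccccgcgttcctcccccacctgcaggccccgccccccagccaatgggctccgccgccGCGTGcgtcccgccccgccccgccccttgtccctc
Pdk1: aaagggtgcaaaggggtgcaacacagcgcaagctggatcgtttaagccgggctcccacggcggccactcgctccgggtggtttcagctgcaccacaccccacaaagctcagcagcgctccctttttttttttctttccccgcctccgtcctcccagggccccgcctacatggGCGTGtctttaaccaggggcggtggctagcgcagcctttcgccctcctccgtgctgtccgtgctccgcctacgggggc
Ldha: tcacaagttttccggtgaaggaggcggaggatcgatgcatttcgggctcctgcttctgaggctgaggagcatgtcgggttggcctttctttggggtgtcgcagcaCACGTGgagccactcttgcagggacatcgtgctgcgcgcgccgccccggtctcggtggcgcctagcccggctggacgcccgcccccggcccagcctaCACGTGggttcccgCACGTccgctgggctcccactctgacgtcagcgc
Car9: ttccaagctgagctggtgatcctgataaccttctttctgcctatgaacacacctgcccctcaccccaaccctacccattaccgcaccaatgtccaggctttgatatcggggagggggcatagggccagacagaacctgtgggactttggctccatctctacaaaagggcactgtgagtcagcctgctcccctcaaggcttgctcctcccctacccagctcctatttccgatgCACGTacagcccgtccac
Pfkfb3: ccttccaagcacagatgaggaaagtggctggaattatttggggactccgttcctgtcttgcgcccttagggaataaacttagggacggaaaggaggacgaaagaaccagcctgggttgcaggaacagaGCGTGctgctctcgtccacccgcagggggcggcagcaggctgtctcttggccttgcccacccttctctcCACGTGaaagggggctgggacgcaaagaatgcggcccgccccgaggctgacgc
Adm: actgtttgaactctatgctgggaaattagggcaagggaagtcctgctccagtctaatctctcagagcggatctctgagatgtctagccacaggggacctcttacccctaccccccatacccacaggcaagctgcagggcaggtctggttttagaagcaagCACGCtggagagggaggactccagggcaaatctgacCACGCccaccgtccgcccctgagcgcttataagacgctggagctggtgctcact
These stretches lie at chr7:138909507-138909756 (minus strand) for Bnip3, chr2:71872974-71873223 (plus strand) for Pdk1, chr7:46845554-46845803 (plus strand) for Ldha, chr4:43506776-43507025 (plus strand) for Car9, chr2:11502091-11502340 (minus strand) for Pfkfb3 and chr7:110627407-110627656 (plus strand) for Adm. Bnip3 held 5 cores, of which the pair written CACGTG is 1 palindrome counted once per strand. Ldha held 5 in the printed stretch and 7 in the whole window, with 2 such palindromes. Car9 held 1, read on the opposite strand from position -18 to -14. Pdk1 held 1 in the printed stretch and a second across the start, and Adm held 2. Pfkfb3 held 3, with 1 such palindrome, and 1 more after the start. The map of cores shows where they fall in all the promoters.

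**Figure D1:**
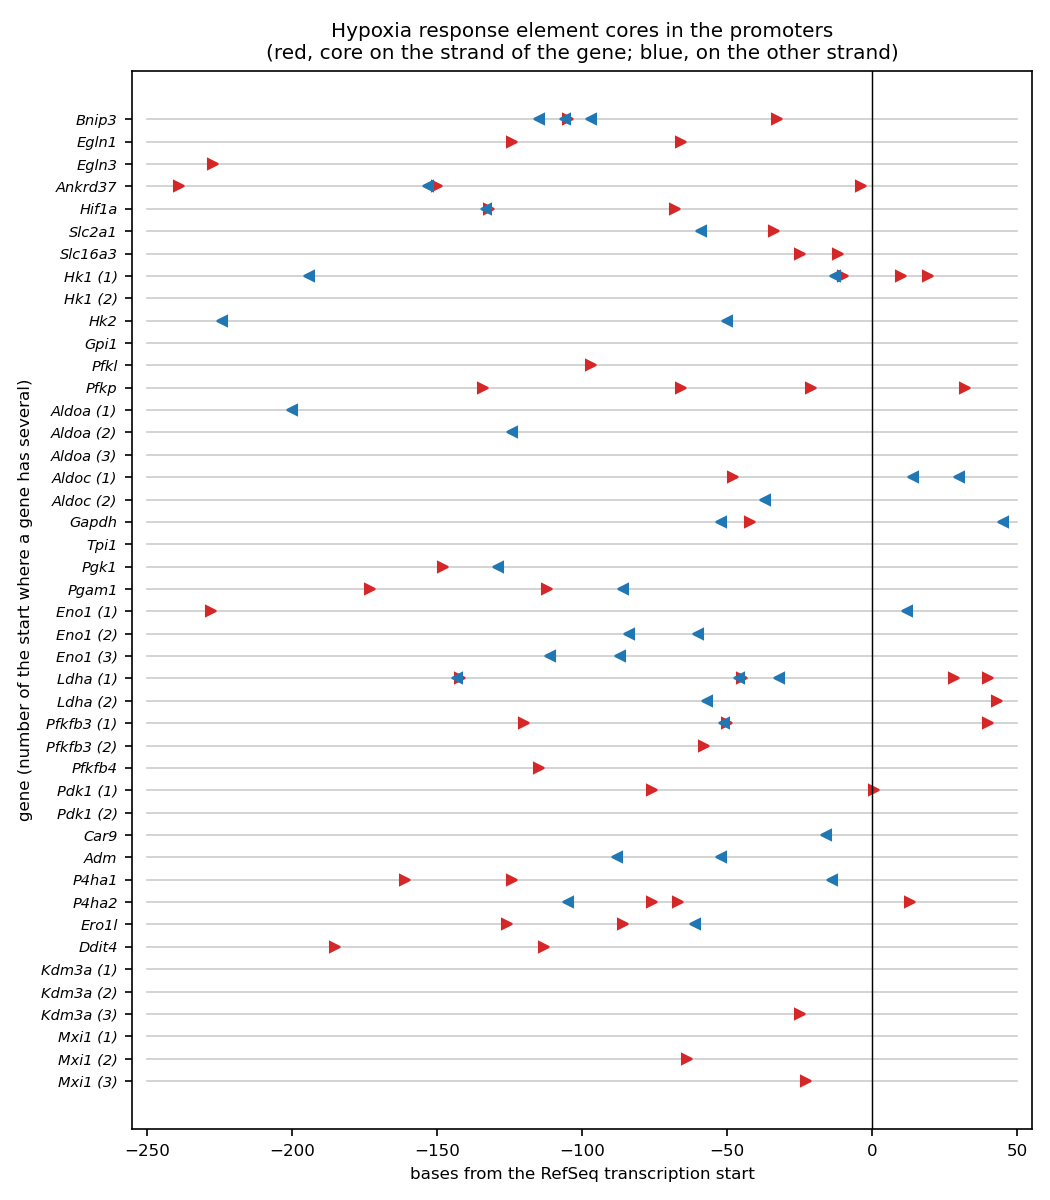
Cores of the hypoxia response element (triangles; red on the strand of the gene, blue on the other strand) by distance in bases from the RefSeq transcription start, 1 line for each promoter of the 31 matched genes. Of these genes 29 held a core in at least 1 promoter, and Gpi1 and Tpi1 held none.

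Recovered reads ran from 8849257 to 31609870 per library over all 54, with a median of 16623618. The tumors had 12183058 to 17369960 reads and the lung metastases 16327693 to 20368740. The 2 libraries of a clone or specimen correlated across genes at 0.981 to 0.998, lowest in Tumor_2. Library B of Tumor_2 stood apart: Aldoa had 4904 normalized counts there and 11266 in library A, and results that rest on Tumor_2 are given without that library where it matters. A normalized count is the deposited log2 value brought back to the count scale, the number of reads after the scaling for library depth by the authors, and a printed value is the mean of 2 libraries unless libraries are named. Differences are on the deposited log2 scale, which shrinks differences between genes of low count. Of the 33 genes, 31 had a normalized count of at least 10 in all 23 clones, Adm did in 20 and Slc16a3 in 1.

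Levels differed widely between the genes. Per kilobase of exon, the highest mean levels over clones were those of glycolytic enzymes. Pgam1, phosphoglycerate mutase, had 9477 normalized counts per kilobase, Ldha, lactate dehydrogenase A, 8186, and Pgk1, phosphoglycerate kinase, 3821. Aldoa, aldolase A, had 3282 and Tpi1, triosephosphate isomerase, 1955. Slc16a3, the lactate exporter MCT4, stood lowest at 0.973 per kilobase, with 2.42 to 13.0 normalized counts over the clones and 1 read in its poorest library. Eno1, enolase 1, was second lowest at 8.99 per kilobase, far below its neighbours in the pathway. A row named Gm5506, in RefSeq an older name of the Eno1 copy Eno1b, whose transcript is 99.5% identical to Eno1 at its best match, had a median of 13705 normalized counts over the clones against 43.9 for Eno1, and the levels of both rows correlated over the 23 clones at r = 0.88. Gapdh had 77 near-identical copies, counted as other genes matching at least 95% over at least 300 bases. One of them, Gm12070, had a median of 3582 counts against 1960 for Gapdh itself (r = 0.93). The Eno1 and Gapdh rows are therefore uncertain as measures of those genes. Bnip3 had 5 such copies, Pgk1 4 and Ldha 3, none of which had a row here. No strand setting of the counting is given in the sources used here, so reads from overlapping genes cannot be told apart; 22.3% of the exon bases of Bnip3 and 26.4% of those of Ankrd37 are shared with another annotated gene.

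The first comparison asks how far single-cell clones of 1 line differ in these genes under 1 culture medium. By a moderated F-test in limma over the 46 clone libraries, 32 of the 33 genes differed between clones at an adjusted p under 0.05, against 95.1% of all 13637 genes tested, so that the count says nothing particular about these genes. Slc16a3 did not pass (adjusted p = 0.51). The spread was wider than for most genes. On the log2 scale the SD between clones had a median of 0.45 against 0.288 over all genes tested, while the median SD between libraries of a clone was 0.14 in both. A range of at least 2 log2 units between the highest and the lowest clone was seen for 13 of the 33 genes (39.4%) and for 13.7% of all genes.

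Among the genes for oxygen sensing and mitochondrial removal, Egln3 and Bnip3 varied most. Egln3 encodes the prolyl hydroxylase that is itself induced by hypoxia. It ran from 117 normalized counts in clone A and 267 in clone L, through a median of 1406, to 3295 in clone O and 4098 in clone D, an SD between clones of 1.11 (adjusted p = 1.33e-25, limma F-test). Clone A stood alone at the bottom, below the next clone by more than the spread between libraries. Bnip3, on chromosome 7 from 138890836 to 138909519 (minus strand, mm10), encodes a mitochondrial receptor for mitophagy. It had 78.6 counts in clone J and 102 in clone M, a median of 681, and 1205 and 1273 in clones C and U (SD 0.93, adjusted p = 6.87e-22). Its relative Bnip3l, also a mitophagy receptor, was lowest in the same clones J and M, at 901 and 1172, and reached 3495 in C and 3591 in W. Hif1a itself ran from 2459 in clone M and 2560 in clone A to 6601 in U and 9844 in C, with a median of 3915 (SD 0.48, adjusted p = 8.35e-10). Clone A combined a low Hif1a level with the lowest Egln3 level. Egln1, the main oxygen sensor in most cells, spanned 1616 to 3847 counts, and Ankrd37, a hypoxia-induced ankyrin protein, 26.1 to 85.1.

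Car9 was the most variable of the 33. It encodes carbonic anhydrase IX, a membrane enzyme that acts in pH control and is widely used as a marker of hypoxia. Clones G, H and S had 12.5, 14.1 and 15.9 normalized counts, the median was 297, and clones C and U had 1028 and 1503 (SD 1.37, adjusted p = 8.13e-24, limma F-test). The highest clone had 119.8 times the count of the lowest. The 3 lowest clones were set apart from the fourth, clone R, at 57.2 counts. Adm, which encodes the secreted vasodilator adrenomedullin, had no read in either library of clone S, where a count of 0 allows up to 3 reads per library, and 0.992 counts in clone K. Its median was 28.0, and clones I and Q reached 74.0 and 143.

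Among the regulators of glucose use, Pfkfb3 and Pdk1 varied most. Pfkfb3, whose product makes the activator of phosphofructokinase, ran from 81.4 counts in clone W and 113 in clone B to 1038 in clone J and 1746 in clone G, with a median of 245 (SD 0.82, adjusted p = 6.55e-18). Clones G and J stood apart from the other 21, none of which passed 432. Pdk1, the kinase that inhibits pyruvate dehydrogenase in mitochondria, had 254 counts in clone M and 427 in clone H, a median of 1198, and 2095 and 2257 in clones U and C (SD 0.72, adjusted p = 1.67e-18). Pfkfb4, a relative of Pfkfb3 that also lowers its product, ranged from 26.6 to 119 counts. Of the transporters, Slc2a1, the glucose carrier GLUT1, ranged from 1631 in clone S to 4376 in clone C.

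Of the 13 glycolytic enzymes, the 12 other than Aldoc had SDs between clones of 0.20 to 0.56. Aldoc, an aldolase found mainly in brain, ran from 15.8 in clone J and 39.8 in V through a median of 120 to 343 in R and 422 in A (SD 0.75, adjusted p = 1.85e-16, limma F-test), with 7 reads in its poorest library. Hk2, the inducible hexokinase, was highest in clone G at 5161 counts, above the next clone, C, at 2977, and had a median of 1341. Pgk1 ran from 3266 in clone J to 15088.5 in clone U, and Ldha from 14593 in clone M to 39642 in clone U. The smallest SDs between clones were those of Slc16a3 (0.11), Eno1 (0.20), Gapdh (0.22), Gpi1, glucose phosphate isomerase (0.23), and Ankrd37 (0.27). For Slc16a3 and Eno1 the deposited scale is compressed at such low counts. Gapdh spanned 1573 to 2779.5 counts, 1.77-fold, and Gpi1 1853 to 3902, 2.11-fold. The remaining enzymes Hk1, Pfkl, Pfkp, Aldoa, Tpi1 and Pgam1 spanned 2.43-fold to 3.48-fold.

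Genes for collagen hydroxylation, protein folding and stress also differed between clones. P4ha2, a subunit of collagen prolyl hydroxylase, had 27.9 counts in clone V and 55.5 in S, a median of 230, and 392 in L and 870 in A (SD 0.69, adjusted p = 2.46e-19). Clone A stood apart at the top. P4ha1, the major form of that subunit, ranged from 848 in clone V to 2072 in clone A. Ero1l, an oxidase that helps to form disulfide bonds in the endoplasmic reticulum, had 1121 counts in clone O and 1148 in N, a median of 1895, and 3841 in C and 4192 in G (SD 0.57, adjusted p = 1.66e-16, limma F-test). Ndrg1, a hypoxia-induced gene linked to differentiation, had 1047 counts in F and 1277 in O, a median of 2134, and 8403 and 9595 in clones U and C (SD 0.75, adjusted p = 2.05e-19). No other clone passed 3231 counts of Ndrg1. Ddit4, which encodes the mTORC1 inhibitor REDD1, was likewise highest in clones C and U at 1529 and 1682 counts, with a median of 436 and a lowest value of 236 in clone Q (SD 0.73, adjusted p = 2.84e-15). Kdm3a, a histone demethylase, ranged from 613 in clone Q to 2342 in clone S, and Mxi1, an antagonist of MYC, from 373 in clone M to 1929 in clone C.

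**Figure D2:**
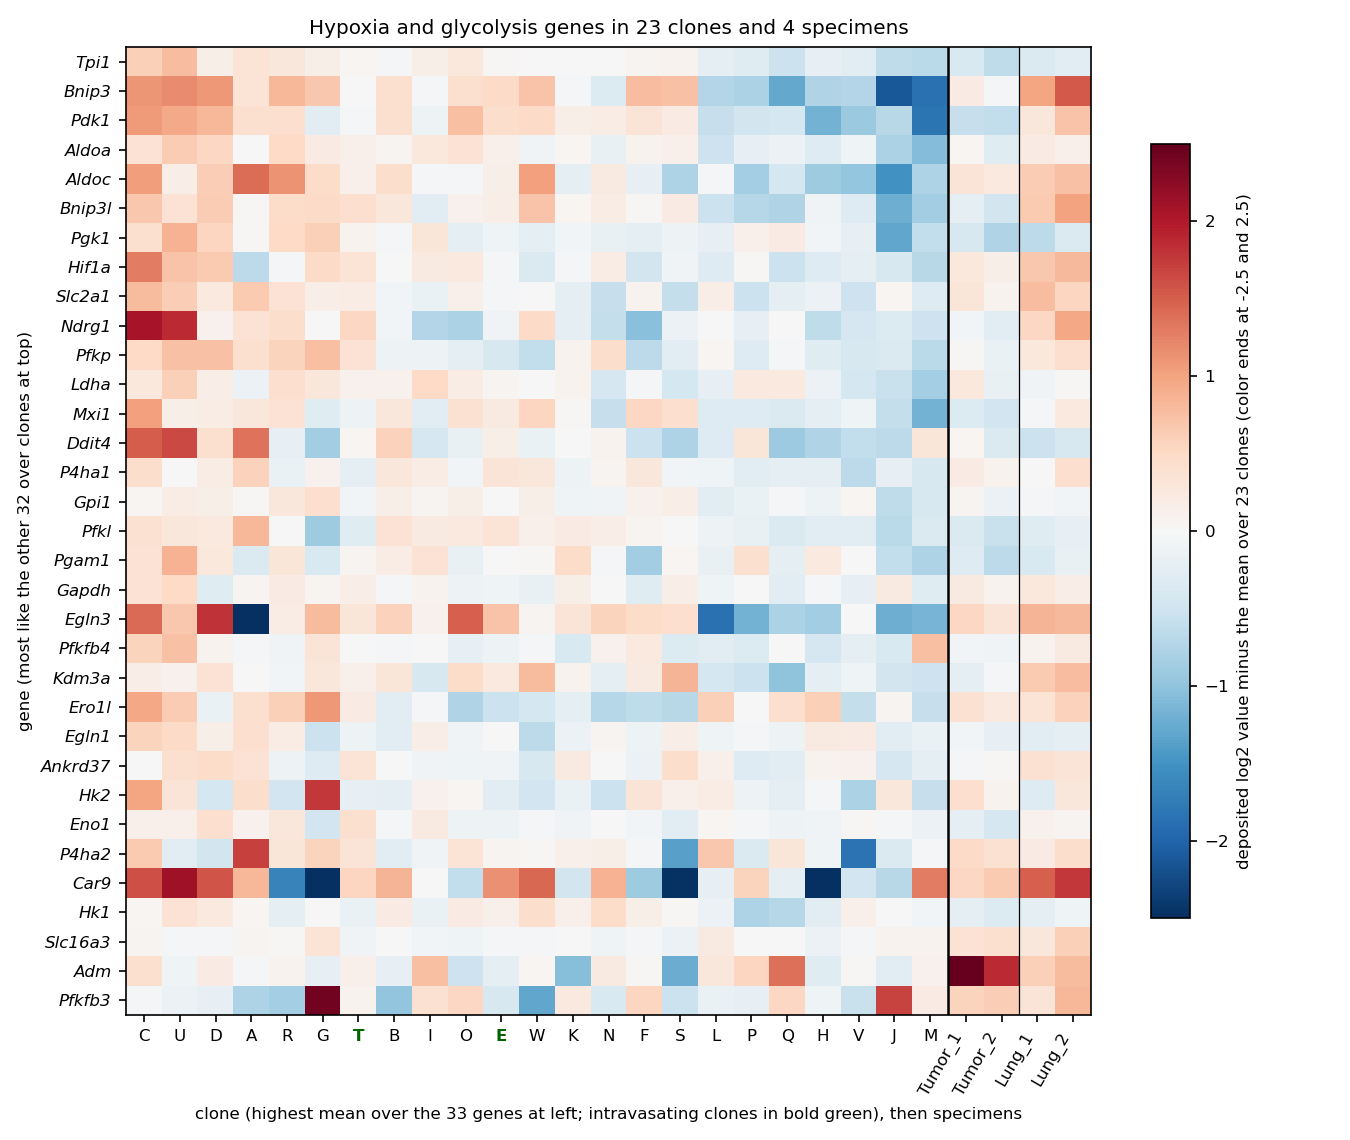
Deposited log2 value minus the mean over the 23 clones (color) for each of the 33 genes (rows) in 23 clones and 4 specimens (columns). Clones C and U are high in most rows, J and M low in most rows, and clone G is high for Pfkfb3 and Hk2 and low for Car9.

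Clones C and U stood highest and M and J lowest in the mean over the genes. Averaging the z-scores of the 33 genes over the 23 clones, clone C stood at 1.23 and clone U at 1.11, followed by D at 0.62 and A at 0.50, while J and M stood at -0.90 and -0.96. In clone C 31 of the 33 genes were above the clone mean and in clone U 29, against 7 in J and 6 in M. Clone U had the highest level of 9 genes, among them Ldha, Pgk1, Pgam1, Aldoa and Tpi1, and clone C that of 6, among them Hif1a, Slc2a1 and Pdk1. Clone M had the lowest level of 9 and clone J of 6. The order was not shared by all groups of genes. Clone G was highest for 6 genes, namely Hk2, Pfkfb3, Ero1l, Gpi1, Pfkp and Slc16a3, and lowest for Car9, Pfkl and Eno1. Clone M, lowest in mean z-score, had the highest Pfkfb4 level, at 119 counts, and 807 counts of Car9. The intravasating clones stood in the middle, T seventh at 0.20 and E eleventh at 0.05. The mean z-score and the total reads of a clone correlated at r = 0.32 over 23 clones.

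**Figure D3:**
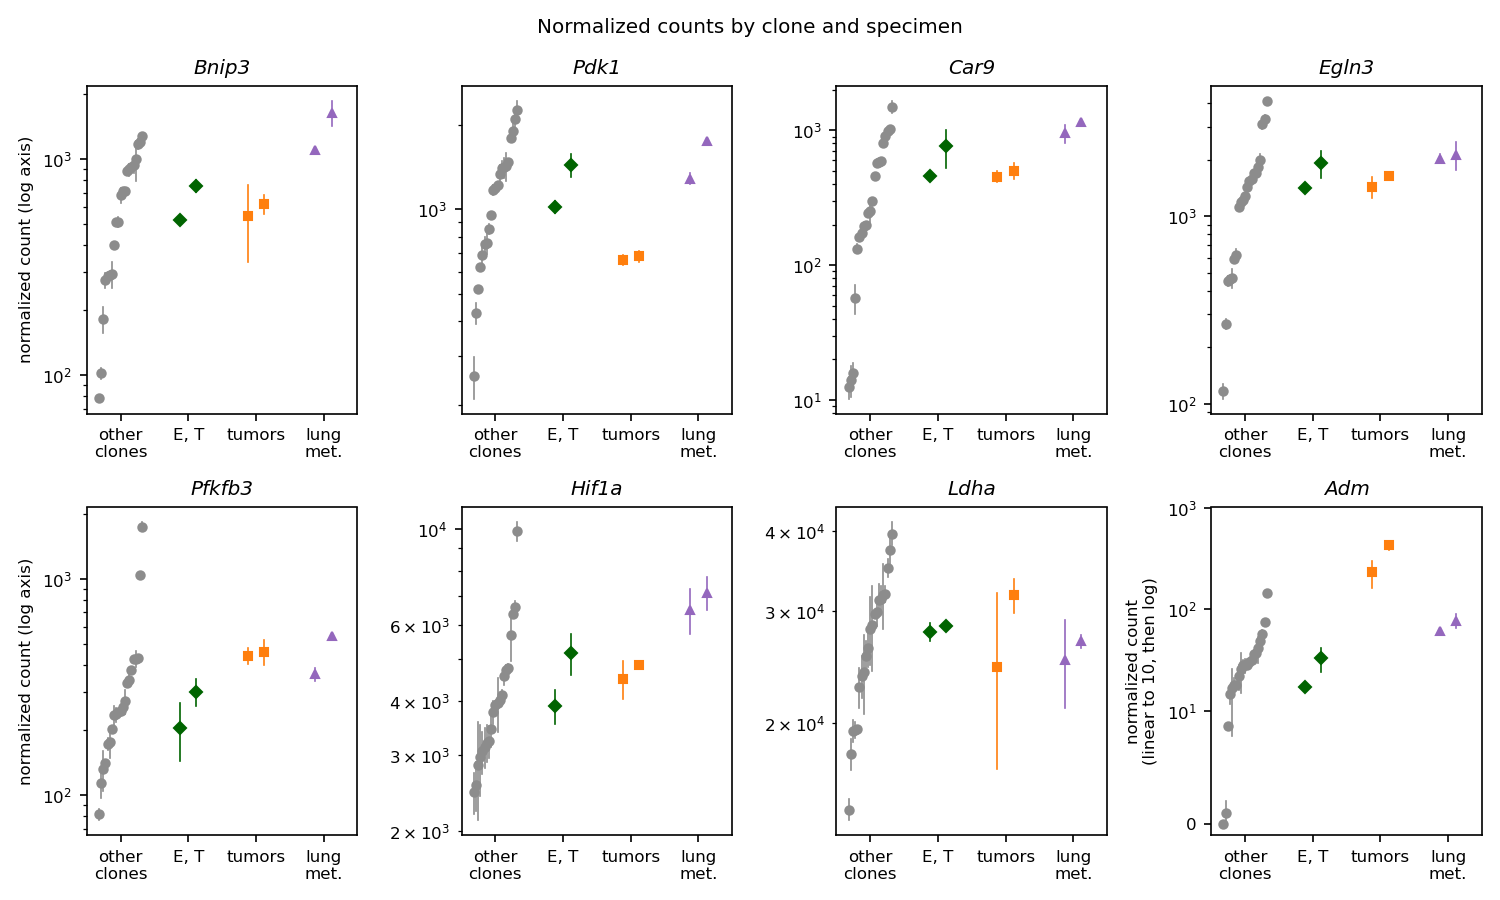
Normalized counts of 8 of the genes (vertical axis, logarithmic; for Adm linear up to 10) in the 21 other clones, clones E and T, the tumors and the lung metastases. Points are means of 2 libraries and vertical lines join the 2 libraries. Lung metastases lie above both tumors for Bnip3, Pdk1, Car9, Egln3 and Hif1a and below them for Adm, and the clones span both tissues for all but Adm and the top of Bnip3.

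How the genes varied together is given as a description, since the points share the line, the medium and the processing. Over the 23 clones the median Pearson r of the 528 pairs was 0.30, with 446 pairs above 0 and 33 at 0.7 or more, and without clones C and U the median was 0.19. A block of genes around Bnip3 moved together. Bnip3 correlated with Bnip3l at r = 0.91 (Spearman's rho 0.85, and r = 0.91 without C and U), with Tpi1 at 0.89 (rho 0.82, 0.90 without them), with Aldoa at 0.88 (rho 0.84, 0.87) and with Pdk1 at 0.86 (rho 0.87, 0.83). Against the mean of the other 32 genes, Tpi1 had the highest r at 0.92, followed by Bnip3 at 0.83 and Pdk1 and Aldoa at 0.81. Slc16a3 at 0.03, Adm at -0.03 and Pfkfb3 at -0.22 had the lowest. Tpi1, the gene most like the rest, had no core in its promoter window, and Bnip3, the next, had 5. Pfkfb3, the least like the rest, had 4 in its first window. A palindrome is counted once per strand, and whether cores go with likeness was not tested.

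Smaller sets stood apart from that block. Car9 and Bnip3, both widely used as hypoxia markers, correlated at only r = 0.12 (rho 0.23). Car9 instead followed Ddit4 at r = 0.76 (rho 0.84, and r = 0.70 without C and U). Hif1a and Egln3 correlated at 0.72 (rho 0.72, 0.74 without C and U). Pfkfb3 varied with Hk2 at r = 0.63 (rho 0.47) and against Pfkl, the liver form of phosphofructokinase, at -0.65 (rho -0.42); clone G was an extreme for all 3 of these genes. The r of 0.69 between Ndrg1 and Ddit4 fell to 0.32 without clones C and U. The correlation of Hk1 with Hk2 was -0.03 and that of Pfkl with Pfkp 0.15. That of Aldoa with Aldoc was 0.59 (rho 0.61) and that of P4ha1 with P4ha2 0.54 (rho 0.30).

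**Figure D4:**
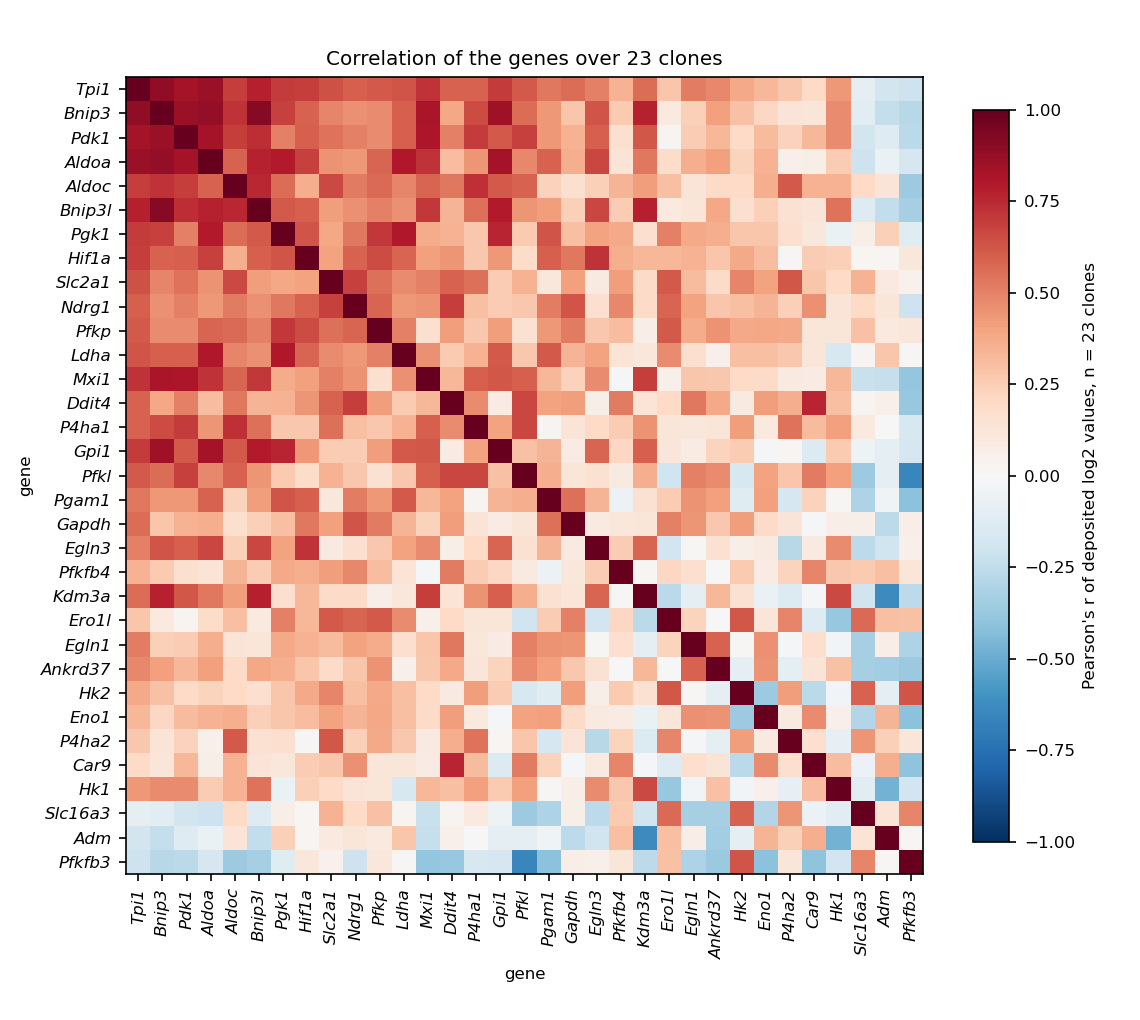
Pearson's r of the deposited log2 values over 23 clones for each pair of the 33 genes, ordered from the gene most like the mean of the others (Tpi1) to the least (Pfkfb3). The dark block at the upper left holds Tpi1, Bnip3, Pdk1, Aldoa, Aldoc and Bnip3l, with r of 0.91 for Bnip3 and Bnip3l.

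Outside the 33 genes, those whose level over the 23 clones was most like the mean z-score, among genes with a mean of at least 50 counts, included Aldoart1 (r = 0.83), Grhpr (0.83), Fam63b (0.83), Pgm2 (0.82), Ncoa1 (0.81), Aldoart2 (0.80), Tnfsf9 (0.79), Arrb1 (0.75) and Fndc3b (0.75). Aldoart1 and Aldoart2 are retrogene copies of Aldoa, and correlated with it at 1.00 and 0.98, which was not tested for shared reads. Pgm2 encodes a phosphoglucomutase. The lowest were Cnih4 (-0.84), Scamp4 (-0.76), Cep78 (-0.76), Pcmt1 (-0.75) and Cd24a (-0.74). The median r with the mean z-score was 0.26 over 25 other hypoxia-induced genes, 0.12 over 22 other glycolysis and pyruvate genes, 0.07 over 13 other regulators of the HIF pathway and 0.18 over 16 proliferation genes, against 0.01 over 10612 genes. These lists are short and were written by hand.

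The study sought genes that set intravasating clones apart. Clones E and T did not differ from the other 21 clones in any of these genes by limma on 1 value per clone. Of the 32 genes tested, 0 were called at an adjusted p under 0.05, with 0 also at an unadjusted p under 0.05. Over all 13152 genes 0 were called (0%), and 102 had an unadjusted p under 0.05. Slc16a3 was not tested for low counts. Car9 had the largest difference, with 767 counts for E and 457 for T, while the others had 12.5 to 1503 with a median of 252, a log2 difference of 0.93 ± 0.95 (SE; adjusted p = 1). Hif1a had 3888 counts for E and 5154 for T, with a median of 3915 for the others, and differed by 0.16 ± 0.34 (adjusted p = 1). With 2 clones against 21 of such wide spread, differences of this size were not detectable.

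The 2 intravasating clones differed from each other. In a limma contrast over the clone libraries, 13 of the 33 genes were called. Of these 7 were higher in E (21.2% of the 33, against 15.3% of all genes tested) and 6 in T (18.2%, against 13.4%), shares close to those of all genes. Among oxygen-sensing and mitophagy genes, Bnip3 had 804 and 705 counts in the libraries of E and 537 and 507 in those of T (log2 difference 0.48 ± 0.13 SE, adjusted p = 0.00646). Egln3 had 2218 and 1608 in E and 1409 and 1403 in T (0.41 ± 0.12, adjusted p = 0.00733), and Ankrd37 went the other way, with 46.9 and 40.0 in E and 75.0 and 72.9 in T (-0.42 ± 0.12, adjusted p = 0.00643). The libraries of E and T did not overlap for any of the 3. Hif1a was at 4242 and 3535 in E and at 5720 and 4589 in T and did not pass (-0.40 ± 0.19, adjusted p = 0.117).

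The phosphofructokinase isoforms differed in opposite directions. Pfkl had 3205 and 3678 counts in E and 2218 and 2102 in T (0.65 ± 0.16, adjusted p = 0.00273), while Pfkp, the platelet form, had 670 and 691 in E and 1123 and 1284 in T (-0.77 ± 0.10, adjusted p = 2.51e-07, limma). Pdk1 was higher in E by 0.47 ± 0.14, Car9 by 0.61 ± 0.17, P4ha1 by 0.55 ± 0.12 and Mxi1 by 0.36 ± 0.11, with adjusted p between 0.000927 and 0.0109. Ero1l (-0.73 ± 0.13, adjusted p = 4.77e-05), Ndrg1 (-0.60 ± 0.13, adjusted p = 0.00076), Pfkfb3 (-0.48 ± 0.16) and Eno1 (-0.52 ± 0.19) were higher in T. The libraries of E had 525 and 1008 counts of Car9 and those of T 479 and 436. For Pfkfb3 the libraries overlapped, with 266.5 and 143 in E and 259 and 343.5 in T. Pfkl, Pfkp, P4ha1 and Ero1l kept their calls in all 10 alternatives tried. Of the 33 genes 7 were called without library A of clone E, 9 without its library B, 12 without library A of clone T and 8 without its library B. Without library B of clone E, Car9 differed by 0.18 (adjusted p = 0.471) and Pfkfb3 by -0.14 (adjusted p = 0.634), and without its library A by 1.04 and -0.83. Egln3 differed by 0.19 (adjusted p = 0.325) and Ndrg1 by -0.39 (adjusted p = 0.064) without library A of clone E, and Eno1 by -0.22 (adjusted p = 0.548) without library A of clone T. Without library B of clone T, Pfkfb3 differed by -0.31 (adjusted p = 0.269) and Eno1 by -0.81 (adjusted p = 0.00615). Bnip3, Pdk1 and Mxi1 lost their calls without library A of clone E and without library B of clone T.

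Before the tissues are compared, markers of other cells are given, since several of them moved with the tissue. The 6 macrophage markers summed to 83.8 to 534 normalized counts in the clones, to 692 and 887 in the tumors and to 1172 and 2387 in the metastases. Lyz2, lysozyme of myeloid cells, had at most 6.49 counts in a clone, 517 and 337 in the tumors and 851 and 1831 in the metastases. It made up most of the macrophage sum in the metastases. Emr1 and Cd163 also had more counts in both metastases than in both tumors. In Lung_1 Cd68 and Mrc1 had fewer counts than in both tumors, and Csf1r lay between them. The 6 fibroblast markers summed to 119 to 1782, 663 and 761, and 1658 and 4452. Pdgfra made up most of this sum in the metastases, at 1492.1 and 3394.0, and reached 1755.6 in a clone. In Lung_1 Col1a1 and Lum were below both tumors, Col3a1 and Dcn lay between them, and Col1a2 was above both. In Lung_2 these genes other than Lum were above both tumors. The 6 endothelial markers summed to 4.31 to 86.5, 61.4 and 74.6, and 120 and 133. All had more counts in both metastases than in both tumors. Tie1 made up most of this sum in the metastases, at 68.98 and 75.18, and reached 75.59 in a clone. Between metastases and tumors 2 of 5 macrophage markers tested, 1 of 5 fibroblast markers and 1 of 3 endothelial markers were called higher in the metastases. Of these markers 0 were called lower. Over all genes tested 16.9% were higher and 15.4% lower in the metastases than in the tumors. The part of the macrophage, fibroblast and endothelial markers in the tissue results was not tested. The 7 lung epithelial markers summed to 30.8 and 39.7 in the metastases, within the 16.6 to 63.8 of the clones, with Sftpc, the surfactant protein of the alveolus, at 1.72 and 4.54 counts. All 4 globin genes were at 0. Pan-leukocyte markers summed to 5.14 to 265 in the clones, 81.4 and 95.3 in the tumors and 136 and 380.4 in the metastases. Of these Cd53 reached 238.8 in a clone. Lymphocyte markers summed to at most 13.0 in any sample. Of the 6 markers of the carcinoma epithelium, Epcam, Krt7, Cdh1 and Krt14 were lower in the metastases than in the tumors and Krt8 was higher. Cdh1, the adhesion molecule E-cadherin, had 2279 and 1341 counts against 9034 and 7914 (log2 difference -2.22 ± 0.21 SE, adjusted p = 0.000254, limma). The sum of the 6 was 15655 and 22199 in the metastases and 16385 to 88949 in the clones.

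Set against the 23 clones, the orthotopic tumors differed in 1 well-measured gene, Adm. Of the 33 genes 2 were higher (6.1%, against 3.69% of all 13401 genes tested) and 0 were lower (against 1.42%). In bulk RNA more cells of 1 kind and more RNA per cell cannot be told apart. Adm had 382 and 474 normalized counts in the libraries of Tumor_1 and 301 and 161 in those of Tumor_2, and between 0 and 143 in the clones. Both tumors lay above all 23 clones (log2 difference 2.26 ± 0.38 SE, adjusted p = 0.000375, limma). Without Tumor_1 the adjusted p was 0.0838. Slc16a3 was also called, at 13.5 and 15.5 counts against 2.42 to 13.0 (0.38 ± 0.10, adjusted p = 0.0184, limma), a call given as a description. It reached 10 counts in 1 clone and in all 4 specimens, so it entered the test through the specimens, and its call was lost without either tumor, without library B of Tumor_2, and with either set of lettered libraries alone.

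The other 31 genes lay within the range of the clones, with a median difference over the 33 genes of -0.04 against 0.03 over all genes. Hif1a had 4831 and 4486 counts in the tumors against a clone median of 3915 (0.21 ± 0.33, adjusted p = 0.819). Most glycolytic enzymes had differences below 0, none of which passed: Tpi1 had 4013 and 3608 counts against a median of 5318 (-0.51 ± 0.25, adjusted p = 0.271) and Pgk1 6256 and 5120 against 7805 (-0.58 ± 0.31, adjusted p = 0.333). Of the 13 enzymes 4 had a difference above 0. Scaled to the total reads of each library (CPM), the median of all genes rose from 0.03 to 0.14, and calls over all genes moved from 495 higher and 190 lower to 799 and 89.

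The lung metastases were compared with the same 23 clones, so both tissue comparisons share their controls. Here 1 of the 33 genes was higher, Slc16a3 (3.0%, against 10.1% of all 13559 genes tested), and 0 were lower (against 5.94%). Slc16a3 had 11.0 and 21.9 counts in Lung_1 and Lung_2 (0.44 ± 0.10, adjusted p = 0.00365, limma), of which Lung_1 lay below clone G. Only 1 clone reached 10 counts, so Slc16a3 entered this test through the metastases and its calls here are a description. Without Lung_2 its adjusted p was 0.364. Other genes stood high among the clones without passing. Both metastases had more Bnip3 than 20 of the 23 clones, at 1099 and 1642 counts (1.25 ± 0.63, adjusted p = 0.186). They exceeded 21 clones for Bnip3l, at 3470 and 4450 (0.83 ± 0.36, adjusted p = 0.119), and 20 for Car9, at 950 and 1157 (1.63 ± 0.93, adjusted p = 0.242). Hif1a, at 6478 and 7098 counts, was above 21 clones (0.74 ± 0.33, adjusted p = 0.127). Without clones C and U, the highest clones for many of the genes, 4 genes were called, namely Slc16a3, Hif1a, Ndrg1 and Slc2a1, and without clone C alone Slc16a3 and Hif1a were. Clone C was the highest clone for Hif1a, Ndrg1 and Slc2a1, so leaving it out lowers the level of the clones. Clones C and U were chosen on these same values, so the calls added without them are a description. With CPM Slc2a1 was called beside Slc16a3, the median of all genes rose from 0.05 to 0.18, and calls over all genes moved from 1364 higher and 805 lower to 1889 and 494.

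The lung metastases differed from the orthotopic tumors in 14 of the 33 genes. By limma on 1 value per specimen, 13 were higher in the metastases (39.4%, against 16.9% of all 13240 genes tested) and 1 was lower (3.0%, against 15.4%). The median difference was 0.21 over the 33 genes and 0.01 over all genes. Mitophagy receptors led. Bnip3 had 1100 and 1098 counts in the libraries of Lung_1, 1424 and 1860 in Lung_2, 558 and 682 in Tumor_1, and 757 and 333 in Tumor_2. Every metastasis library was above every tumor library (log2 difference 1.17 ± 0.18 SE, adjusted p = 0.00193). Bnip3l had 3021 and 3919 in Lung_1, 4617 and 4283 in Lung_2, 1772 and 1886 in Tumor_1 and 1868 and 1298 in Tumor_2, again without overlap (1.18 ± 0.15, adjusted p = 0.000816, limma).

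Pdk1 and Car9 rose with them. Pdk1 had 1230 and 1344.5 counts in Lung_1 and 1789 and 1731 in Lung_2, against 713 and 649 in Tumor_1 and 633 and 687 in Tumor_2 (1.10 ± 0.15, adjusted p = 0.00113). Car9 had 807.5 and 1093 in Lung_1, 1184 and 1130 in Lung_2, 411 and 497 in Tumor_1 and 569 and 433.5 in Tumor_2 (1.04 ± 0.13, adjusted p = 0.000774, limma). Neither gene overlapped between the 2 tissues. Ndrg1 stood at 3273 and 4449 counts in Lung_1 and Lung_2 against 2122 and 1889 in the tumors (0.91 ± 0.16, adjusted p = 0.00328), and Kdm3a at 2048 and 2239.5 against 1087 and 1274 (0.84 ± 0.12, adjusted p = 0.0013). Both genes lay higher in each metastasis than in either tumor.

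Smaller differences were found for Hif1a, its feedback gene Egln3 and several genes of other roles. Hif1a had 5721 and 7234 counts in Lung_1 and 7714 and 6482 in Lung_2, against 4897 and 4766 in Tumor_1 and 4935.5 and 4036 in Tumor_2 (0.53 ± 0.12, adjusted p = 0.012, limma). Mxi1 had 904 and 1096 against 714 and 641 (0.52 ± 0.13, adjusted p = 0.0155), and Slc2a1 4414 and 3670 against 3099 and 2778 (0.46 ± 0.13, adjusted p = 0.0277). Slc2a1 overlapped between libraries, with 3557 counts in library A of Tumor_2 and 3536 in library A of Lung_1. Egln3, Pfkp and Aldoc were higher by 0.41, 0.42 and 0.41 on the log2 scale, with adjusted p of 0.024, 0.027 and 0.0306. Eno1 was called at 55.04 and 53.25 counts against 32.9 and 26.4 (0.42 ± 0.13, adjusted p = 0.0329). Its libraries overlapped between the tissues. Its copy Gm5506 had 16443 and 14847 counts against 11271 and 8615, a difference in the same direction (0.70 ± 0.18, adjusted p = 0.0185, limma).

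Adm alone was lower in the metastases. It had 58.4 and 63.1 counts in Lung_1 and 64.6 and 89.9 in Lung_2, against 382 and 474 in Tumor_1 and 301 and 161 in Tumor_2 (-1.57 ± 0.23, adjusted p = 0.00159, limma). Most glycolytic enzymes did not pass. Of the 13 enzymes 3 were called higher, Pfkp, Aldoc and Eno1, and 0 lower, with a median difference of 0.20 and 10 of 13 above 0. Aldoa differed by 0.29 ± 0.15 (adjusted p = 0.17), Pfkl by 0.21 ± 0.11 (adjusted p = 0.192), and Tpi1 and Pgam1 by 0.20 each. Ldha had 25043 and 26823 counts in the metastases and 31708 and 24442 in the tumors (-0.07 ± 0.20, adjusted p = 0.795), Pgk1 5152 and 6465 against 6256 and 5120 (0.07 ± 0.16, adjusted p = 0.774), and Gapdh 2418 and 2190 against 2287 and 2135 (0.06 ± 0.11, adjusted p = 0.713). Hk2 differed by -0.28 ± 0.20 and Pfkfb3 by -0.01 ± 0.16, neither past the threshold. The collagen hydroxylases P4ha1 and P4ha2 and the oxidase Ero1l also did not pass. These limits rest on 2 specimens per tissue, and an adjusted p above the threshold does not show equal levels.

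**Figure D5:**
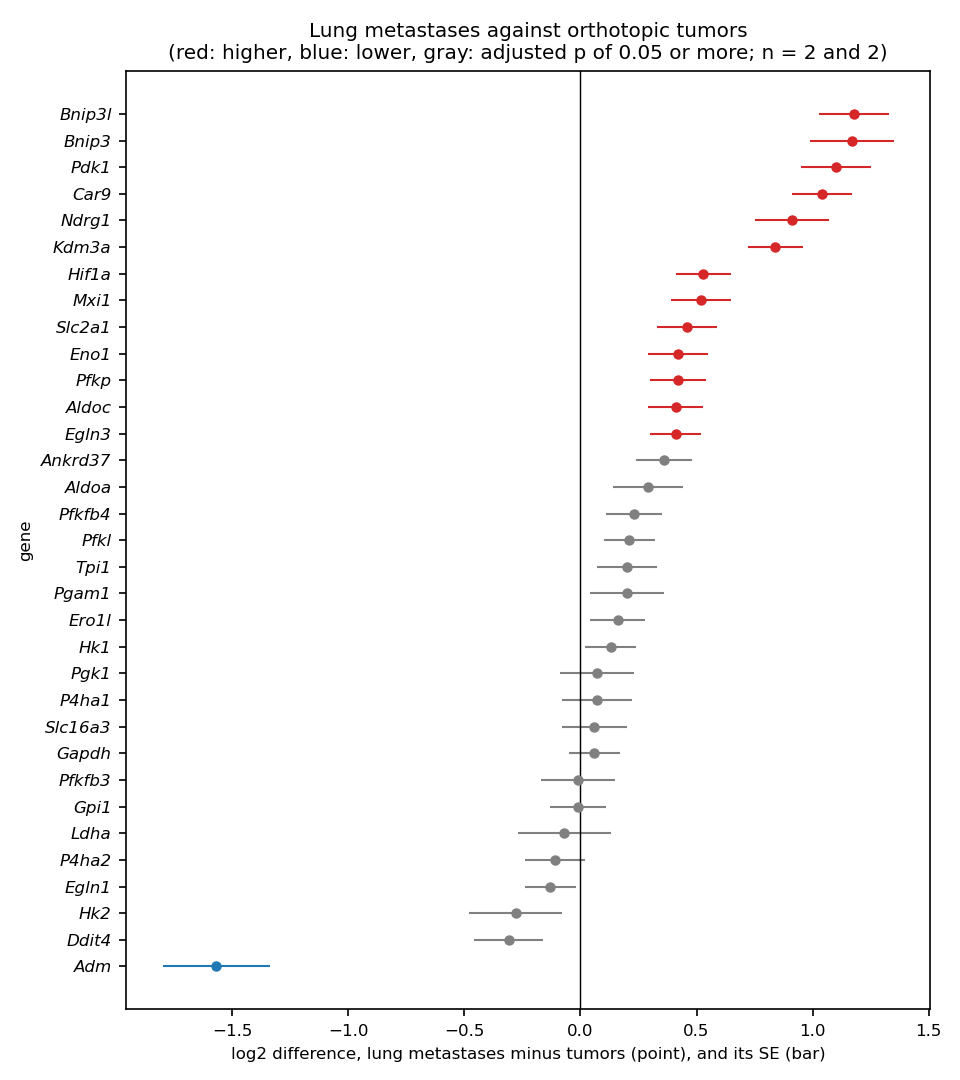
Log2 difference between lung metastases and orthotopic tumors (points) with its standard error from limma (bars) for the 33 genes, n = 2 specimens in each group. Red genes were higher and the blue gene lower in the metastases at an adjusted p under 0.05; Bnip3l, Bnip3, Pdk1 and Car9 lie above 1, Adm at -1.57, and the 13 glycolytic enzymes have a median of 0.20 with 3 called.

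The calls differ in how much they rest on single specimens or libraries. Bnip3l and Car9 kept their calls in all 12 alternatives tried, and Bnip3, Pdk1, Kdm3a and Adm in all but 1, the libraries lettered B alone. Without Tumor_1 7 of the 33 were called and without Tumor_2 6. Without library B of Tumor_2 the count was 13, with Aldoc, Eno1 and Slc2a1 lost and Ankrd37 higher and Ddit4 lower gained. Using the libraries lettered A alone 7 were called, with those lettered B alone 2, and without the filter on low values 8. Hif1a, Egln3, Mxi1, Pfkp, Aldoc, Eno1 and Slc2a1 lost their calls with either set of lettered libraries alone. The difference of Hif1a ran from 0.429 to 0.635 over the alternatives.

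The rest of the pathway was followed in lists written by hand. Of 36 other hypoxia-induced genes 32 were tested between metastases and tumors, and 8 were higher and 2 lower, with a median difference of 0.05. Over all genes 16.9% were higher and 15.4% lower, which also stands beside the counts for the next lists. Plod1 and Plod2, lysyl hydroxylases of collagen, were higher by 1.07 ± 0.14 and 0.71 ± 0.15 (adjusted p = 0.000991 and 0.00876, limma). Plod1 had 641 and 807 counts in the metastases against 329 and 288. Zfp395 and Ccng2 rose by 0.96 and 0.73. Edn1, the vasoconstrictor endothelin 1, fell from 92.7 and 108 counts in the tumors to 2.99 and 3.72 in the metastases. The difference was -1.83 ± 0.12 (SE; adjusted p = 4.53e-05, limma). Edn1 passed the filter on low values through the tumors alone, so its call is a description. Ier3, an early stress gene, fell by 1.11. The vasoactive peptide genes Adm and Edn1 both had lower counts in the metastases.

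Of 16 other regulators of the HIF pathway 14 were tested, with 1 higher and 4 lower in the metastases. Epas1, which encodes HIF-2 alpha, was higher at 19.3 and 43.0 counts against 9.71 and 9.92 (0.54 ± 0.17, adjusted p = 0.0386, limma). Both tumors lay below 10 counts, so Epas1 passed the filter through the metastases alone and its call is a description. Hif1an, the asparaginyl hydroxylase that restrains HIF, was lower, at 470 and 498 against 705 and 742 counts (-0.52 ± 0.11, adjusted p = 0.00797), as were Cited2, a competitor for p300 (-0.77 ± 0.12), Siah2, a ligase acting on prolyl hydroxylases (-0.77 ± 0.12), and Tceb1, a partner of VHL (-0.55 ± 0.11). Of 36 other glycolysis and pyruvate genes 26 were tested, 5 higher and 5 lower. Pgm2 rose by 1.04 and Pdk2, a relative of Pdk1, by 0.81, and the muscle enolase Eno3 fell by 0.93. Of 16 proliferation genes 1, Ccnb2, was higher (0.68 ± 0.12, adjusted p = 0.00351, limma).

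Against the clones, 3 of the 32 other hypoxia-induced genes tested were higher in the tumors (3.69% over all genes) and 6 in the metastases (10.1% over all genes), with 0 lower in either (1.42% and 5.94% over all genes). Lox, lysyl oxidase, had 12.6 and 10.5 counts in the tumors and 14.2 and 56.6 in the metastases, and at most 1.05 in any clone, so that it entered both tests through the specimens alone and its calls are a description. Angptl4, a lipoprotein lipase inhibitor, had 94.7 and 107 in the tumors and 46.7 and 107 in the metastases against 4.03 to 52.8 in the clones, and Loxl2 36.0 and 34.5, and 28.9 and 84.3, against 3.02 to 22.3. Fibroblasts also express these genes, and the part of the fibroblast markers in these differences was not tested. Of the 14 HIF pathway regulators tested, 0 were called between tumors and clones, and 2 were higher and 1 lower in the metastases than in the clones. Epas1 was higher by 1.04 ± 0.34 (adjusted p = 0.0381) and Ep300, a coactivator of HIF, by 0.60 ± 0.14 (adjusted p = 0.0031, limma). Epas1 ran from 0 to 61.7 counts in the clones, with a median of 0.439, so the highest clone lay above both metastases. Hif1an was lower in the metastases than in all 23 clones, which ran from 659 to 1231 counts (-0.84 ± 0.15, adjusted p = 0.000228, limma). Of the proliferation genes Pcna, Cdk1 and Ccnb1 were lower in the tumors and Pcna, Birc5 and Cdk1 in the metastases, 3 of 16 each.

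Between clones E and T the other lists were mixed. Of 31 other hypoxia-induced genes tested, E had higher levels of 4 and T of 12, where E had the higher level of 15.3% of all genes and T of 13.4%. Vegfa, the angiogenic growth factor, had 747 counts in E and 313 in T (1.05 ± 0.15, adjusted p = 1.74e-06, limma), whereas Hmox1, heme oxygenase 1, had 295 and 1011 (-1.59 ± 0.16, adjusted p = 3.62e-09). Slc2a3, the glucose carrier GLUT3, was at 0 counts in E and at 34.2 in T. Of 26 other glycolysis and pyruvate genes, 2 were higher in clone E and 7 in clone T, Pfkm, the muscle form of phosphofructokinase, being higher in E at 503 against 218 counts (1.01 ± 0.13, adjusted p = 2.41e-07).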

How the data were processed

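RNA-seq was run on 54 libraries, 2 for each of 23 clones, 2 tumors and 2 lung metastases. Per the labels' protocols, 100 ng of total RNA was amplified with a NuGEN kit and sequenced in 76-base reads on an Illumina HiSeq. Bowtie2, HTSeq, DESeq and the build mm10 are named per the submitters' processing notes, with versions and settings not given in the sources used here. The authors deposited 1 table of log2 values, whose form is that of a variance-stabilising transformation, with a gene without reads at 5.03. Inverting it gave normalized counts and, divided by the worth of 1 read, whole reads for 100% of values (within 0.01). The table holds 27 rows whose gene names became dates and 1316 rows without a read.

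The deposited log2 values were tested with limma 3.58.1 (trend, R 4.3.3), two-sided, with Benjamini-Hochberg adjustment over all genes tested and a threshold of 0.05, after a filter of at least 10 normalized counts in at least 2 clones or specimens (libraries for tests among clone libraries). Clones and specimens entered tissue and class tests as the mean of their 2 libraries. The scripts were tested on simulated data. The 33 genes and all gene lists were chosen with earlier results of these data known. All 33 genes are accounted for, and those named by rule were the 10 most and 5 least variable among clones, up to 12 called genes with the largest differences in each other comparison, and Hif1a. From each other list up to 6 called genes per comparison could be named, and for likeness over clones the 10 highest and 5 lowest r, of which 1 gene is not reported here. Other members, Gm5506, Gm12070 and single markers were added to show levels. Tables and figures used Python 3.11.15, numpy 2.4.6, pandas 2.3.3 and matplotlib 3.10.9. Alternatives were other scalings, no filter, robust moderation, 1 library letter alone, a replicate block and leaving out each clone, specimen or library; leaving out library B of Tumor_2, or clones C and U, was chosen after seeing the data.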

Additional observations from a re-analysis of the deposited data

Results flagged for a closer look

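In each group of 4 libraries (clones E and T, the tumors, the metastases), the 33 genes were checked for a library whose gap to the others was large for the range of the group, 99 groups in all. Chance marks about 1 group in 20 in this way, and 9 were marked. Library B of Tumor_2 was the lowest tumor library for 4 genes: Bnip3l at 1298.3 normalized counts, Pfkl at 1553.0, P4ha1 at 1305.3 and Ndrg1 at 1567.1. Hk1 was highest in library A of Tumor_1, at 1126.3. Among the metastases, Slc2a1 was highest in library B of Lung_1, at 5291.0, and Kdm3a in library A of Lung_2, at 2504.2. Among the intravasating clones, Bnip3l was highest in library A of clone T, at 3318.4, and Ldha lowest in library A of clone E, at 26822.5.

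The difference of Adm from the clones was not the same in the tissues: metastases against tumors differed by -1.57 on the log2 scale (adjusted p = 0.00159, limma), with both metastases below both tumors.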

How the results depend on the processing

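No called value changed direction under any alternative run. Of the 33 genes, the number called between tumors and clones (2) was 1 with the libraries lettered A, with those lettered B and without library B of Tumor_2, and 0 to 2 when a clone or tumor was left out. Between metastases and clones (1) it was 2 with CPM, 4 without clones C and U, and 0 to 2 with 1 left out. Between metastases and tumors (14) it was 8 without the filter, 7 with the A and 2 with the B libraries, and 6 to 12 with 1 specimen left out, where the lone specimen is assumed to vary like the others. Between E and T (13) it was 7 to 12 with 1 library left out. Among the clones (32) it was 31 to 32.

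Over all genes, calls between tumors and clones (685) were 452 on log2(normalized count + 1), 2300 without the filter, 192 with the A libraries, 315 without library B of Tumor_2 and 16 to 907 with 1 left out. Between metastases and clones (2169) they were 7978 without the filter and 204 to 2375 with 1 left out. Between metastases and tumors (4276) they were 2645 without the filter, 2848 with the A and 325 with the B libraries, and 1358 to 4246 with 1 left out. Between E and T (3919) they were 2535 to 3042, and between intravasating and other clones (0) 0 to 4, with 1 left out. The causes of these moves were not tested, beyond fewer samples.

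With the library letter as a replicate block, 32 of the 33 genes and 13066 genes in all differed among clones, and 13 and 4207 between E and T. The labels do not say what the letters share. Over 253 pairs of clones the A minus B differences correlated at a median of 0.08, from -0.5 to 0.64, with 113 pairs above 0.1, so the letters were not taken as pairing the libraries. Reads per library, and 2 specimens per tissue, limit what could be detected for Slc16a3 and Eno1.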
